A study of Mus musculus with 12 samples.

Results

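The genes of 3 families of splicing factors were followed across age in mouse brain: the SR proteins (Srsf), the heterogeneous nuclear ribonucleoproteins (Hnrnp) and the SF3a and SF3b subunits of the spliceosome (Sf3). Members were taken by gene symbol: Srsf followed by a number, any symbol starting with Hnrnp, and Sf3a or Sf3b followed by a number. This gave 41 of 29957 named genes in the microglia data, with 11 Srsf, 21 Hnrnp and 9 Sf3 genes, and 40 of 14663 in the hippocampus data. Hnrnpa1l2-ps, a processed pseudogene, was in the microglia data alone.

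RNA of C57BL/6 mice was sequenced in 12 libraries, 3 in each of 4 groups: microglia of the hippocampus at 24 months and at 3 months of age, and whole hippocampus at 18 months and at 6 months. Microglia are the resident macrophages of the brain. No transgene, mutation or treatment is named for any group; the sources used here give neither the method that isolated the microglia nor whether each library came from a separate mouse, so the p-values cover no more than the spread of these libraries, which may be technical. The 2 tissues were normalized apart and cover different ages, and no test was made across them.

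An intron is removed once its ends and its branch site have been recognised. SR proteins bind exon sequences and help the U1 and U2 particles to settle on the neighbouring splice sites, while many hnRNP proteins bind introns or exons and hold those particles off; the balance of both sets which exons are kept. SF3a and SF3b form part of the U2 particle, which pairs with the branch site. Many of these genes also splice their own RNA into forms that carry an early stop codon and are destroyed by nonsense-mediated decay, and so limit their own level.

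The promoters of 4 members are shown because these genes have the lowest p-values of the members for age: Hnrnpu and Hnrnph2 in microglia, and Srsf7 and Hnrnpc in hippocampus, with Hnrnph2 separated by age in both tissues. Each is the RefSeq sequence on GRCm38.p6 around the start of transcription, most of it upstream, 5′ to 3′ on the strand of the gene. Capitals mark 3 motifs on either strand: the GC box (GGGCGG), which Sp1 family factors bind, the CCAAT box (CCAAT), which NF-Y binds, and the ETS core (CCGGAA). The Hnrnpu promoter lies at chr1:178337766-178338065 on the minus strand, Hnrnph2 at chrX:134600929-134601228 on the plus strand, Srsf7 at chr17:80207256-80207555 on the minus strand, and Hnrnpc at chr14:52103972-52104271 on the minus strand.
Hnrnpu: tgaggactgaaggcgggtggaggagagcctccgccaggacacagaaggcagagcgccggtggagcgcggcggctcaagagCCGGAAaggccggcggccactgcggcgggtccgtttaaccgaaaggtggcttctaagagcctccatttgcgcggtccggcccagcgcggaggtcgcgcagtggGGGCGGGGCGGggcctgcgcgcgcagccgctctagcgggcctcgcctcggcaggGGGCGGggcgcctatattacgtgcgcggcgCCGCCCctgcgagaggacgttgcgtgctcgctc
Hnrnph2: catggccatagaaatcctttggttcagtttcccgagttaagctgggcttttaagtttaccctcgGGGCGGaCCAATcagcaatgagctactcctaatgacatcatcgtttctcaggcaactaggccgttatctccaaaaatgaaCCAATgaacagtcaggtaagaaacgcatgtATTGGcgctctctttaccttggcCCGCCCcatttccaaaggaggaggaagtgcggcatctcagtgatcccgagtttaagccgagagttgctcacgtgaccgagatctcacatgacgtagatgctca
Srsf7: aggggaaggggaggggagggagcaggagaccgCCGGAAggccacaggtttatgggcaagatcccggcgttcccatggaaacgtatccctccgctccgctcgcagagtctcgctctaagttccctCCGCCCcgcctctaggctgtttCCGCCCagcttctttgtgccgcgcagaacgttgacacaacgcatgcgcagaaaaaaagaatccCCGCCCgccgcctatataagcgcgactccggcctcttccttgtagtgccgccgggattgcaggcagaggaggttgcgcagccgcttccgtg
Hnrnpc: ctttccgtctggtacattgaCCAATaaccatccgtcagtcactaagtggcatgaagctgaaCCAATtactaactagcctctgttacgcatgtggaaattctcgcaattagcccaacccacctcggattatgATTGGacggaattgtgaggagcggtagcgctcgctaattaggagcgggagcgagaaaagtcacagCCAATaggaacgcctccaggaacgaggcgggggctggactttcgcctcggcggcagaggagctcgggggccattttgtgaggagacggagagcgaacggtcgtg

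The 4 windows differ in make-up. Hnrnpu has 72.7% G and C bases, 4 GC boxes, of which a pair overlap by 1 base, and 1 ETS core. Srsf7 has 62.7% G and C, 3 GC boxes and 1 ETS core. Hnrnph2 has 49.0% G and C, 2 GC boxes and 3 CCAAT boxes, and Hnrnpc has 54.3% G and C and 4 CCAAT boxes with no GC box. Among the 36 members in the RefSeq table, 27 (75.0%) held a GC box, against 35.9% of all 27025 promoters and 65.2% of the 7964 promoters of genes tested in microglia. An ETS core stood in 18 of 36 (50%), against 15.2% of all promoters and 30.6% of those of tested genes, and a CCAAT box also in 18 (50%), against 37.9% and 39.3%. The letters TATAAA were found in 5 of 36 (13.9%), against 14.2% of all and 6.76% of tested, and TGACGTCA, the full cAMP response element, in 0 of 36, against 1.88% and 3.45%. The median member promoter had 63.3% G and C and 27.5 CpG sites, where the median of all promoters had 52.7% and 7. These counts describe letters in a window and show no binding.

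The microglia libraries held 9696273, 10017506 and 10316037 estimated counts at 24 months, and 13898512, 8068023 and 14217142 at 3 months. A level of 3 counts, taken as an approximate and not absolute upper limit for a count of 0, equals 0.204 to 0.374 CPM in these libraries. That limit covers counting error only. Summed CPM (counts scaled to a common library size) of 7 microglia markers, Cx3cr1 and P2ry12 among them, was 41068 to 56167 at 24 months and 59239 to 62471 at 3 months, while the neuron markers summed to 1.27 to 20.1 CPM at 24 months and 0.0746 to 10.6 CPM at 3 months, with Slc17a7 at 0. Libraries 1 and 2 of the 24 month group stood apart. Their 10 immediate early genes, such as Fos and Egr1, summed to 26139 and 28641 CPM, against 1180 CPM in the 24 month library 3 and 839 to 1447 CPM at 3 months, and mitochondrial mRNA made up 0.883% and 0.888% of their counts, against 0.326% in the 24 month library 3 and 0.249 to 0.293% at 3 months. The 24 month library 1 also had 1616 CPM of neutrophil and monocyte markers, at most 49.0 CPM in the other 24 month libraries and 9.35 CPM at 3 months, and 288 CPM of mural cell markers, against 38.8 CPM in library 2 and at most 0.759 CPM elsewhere. Astrocyte markers summed to 47.7 to 75.0 CPM at 24 months and 11.6 to 20.4 CPM at 3 months, and endothelial markers to 51.8 to 130.5 CPM at 24 months and 16.6 to 45.0 CPM at 3 months. Oligodendrocyte markers, with Mog and Cldn11 at 0, summed to 91.0 to 124 CPM at 24 months and 26.7 to 108 CPM at 3 months. Library 1 of the 3 month group had the fewest genes with a count, 11789 against 12457 to 13839 in the others. Of genes over 10 CPM, 5.03% were listed at 0 in it, against 0.791% and 0.434% in the other 3 month libraries. In the 24 month libraries 1, 2 and 3 this share was 2.37%, 0.332% and 0.497%. What part these features play in the results below was not tested. Counts of members are also given without the 24 month libraries 1 and 2. That setting keeps library 3, whose astrocyte (47.8 CPM) and endothelial (66.4 CPM) sums were also above those of every 3 month library.

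Per transcript length, Hnrnpk and Srsf2 were the most abundant members in microglia. Hnrnpk, a KH domain protein that binds C-rich RNA, had 851 ± 27.8 TPM (a transcript level corrected for length and depth) at 24 months and 905 ± 166 TPM at 3 months (SD, n = 3 each). Srsf2, which marks nuclear speckles, had 754 ± 99.0 TPM at 24 months and 739 ± 139 TPM at 3 months. Srsf5 followed with 651 ± 260.4 TPM at 24 months and 372 ± 106 TPM at 3 months. Hnrnpf, a binder of G-rich RNA, had 359 ± 28.9 TPM at 24 months and 408 ± 25.6 TPM at 3 months. Sf3b1, the SF3b subunit that contacts the branch site, was the most abundant Sf3 gene with 223 ± 89.7 TPM at 24 months and 159 ± 40.5 TPM at 3 months. Other subunits of the same complex had lower levels. Sf3b2 had 83.1 ± 34.0 TPM at 24 months and 125 ± 37.5 TPM at 3 months, and Sf3b5 had 13.7 ± 8.23 TPM at 24 months and 15.4 ± 3.002 TPM at 3 months.

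At the low end stood Srsf1 with 3.70 ± 3.54 TPM at 24 months and 3.30 ± 5.23 TPM at 3 months, and the Hnrnpu relatives Hnrnpul1 and Hnrnpul2, with means between 1.06 and 2.72 TPM at both ages. Srsf1, the SR protein studied longest, had 0, 6.05 and 13.01 CPM at 24 months, against 0.0746, 1.87 and 13.8 CPM at 3 months: each age held a library near 0 and one above 10 CPM. Srsf12 and Hnrnpa1l2-ps were at or under 0.759 CPM in all 6 libraries and were not tested. The 41 members summed to 5197, 5443 and 4068 TPM in the 24 month libraries, against 4532, 3751 and 4644 TPM in the 3 month libraries. By this sum the 24 month libraries 1 and 2 were the highest of the 6, and library 3 lay within the range of the 3 month group. In summed CPM the 24 month libraries 1 and 2 were again highest, at 6511 and 6782 CPM. Library 3 was then below every 3 month library, at 4643 CPM against 4751 to 5438 CPM.

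**Figure D1:**
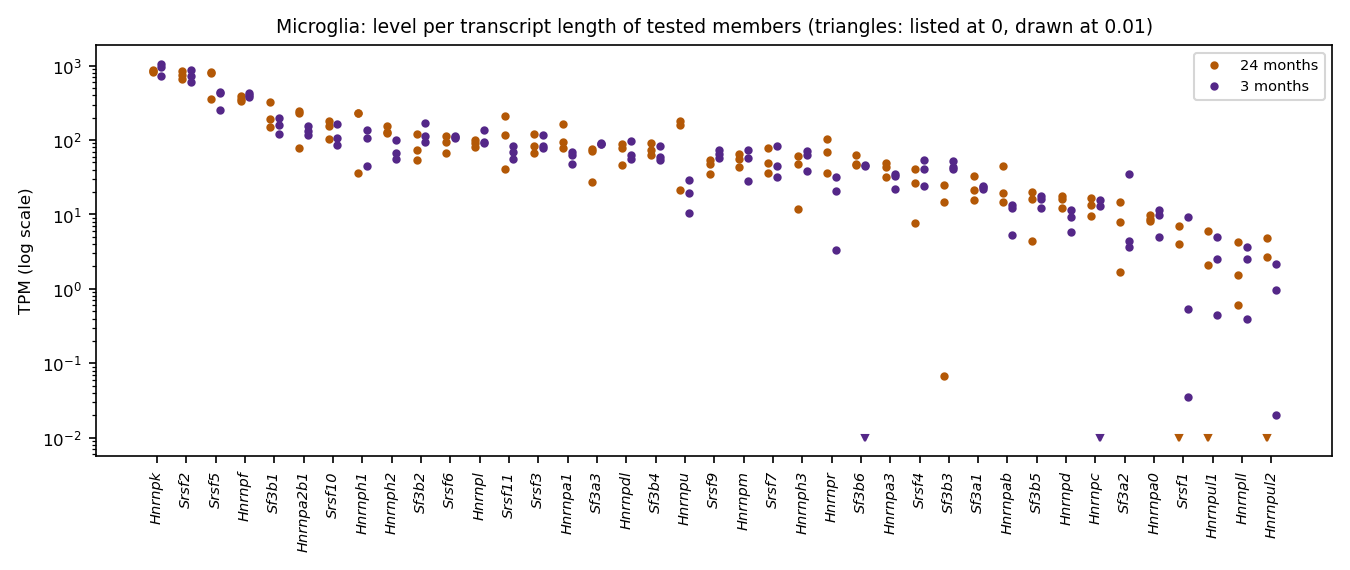
Level of the 39 tested members in each microglia library, in TPM on a log axis, with 24 month libraries left of 3 month libraries for each gene and triangles for libraries listed at 0. Hnrnpk and Srsf2 lead with means between 739 and 905 TPM, and the ages overlap for most members.

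No member passed the test of 24 against 3 month microglia at an adjusted p of 0.05 (edgeR's quasi-likelihood test with Benjamini-Hochberg adjustment over 10663 genes), nor did any other gene (0% higher and 0% lower). Of the 39 members tested, 26 had a higher mean at 24 months and 13 a lower one, where 50.5% of all tested genes were higher and 49.5% lower, and their median log2 change was 0.19, against 0.0103 over all genes. At an unadjusted p under 0.05, 5 members were higher at 24 months and 0 were lower, where 375 (3.52%) of all genes were higher and 215 (2.02%) lower. The 3 libraries of each age did not overlap in 4 members with higher and 1 with lower values at 24 months, against 7.26% and 6.18% of all genes. Without the 24 month library 3, 12 members were higher without overlap and 2 were lower, against 16.3% and 14.3% of all genes, and 55 genes in all, none of them a member, passed the adjusted threshold. DESeq2's Wald test called 141 genes, 0 of them members.

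**Figure D2:**
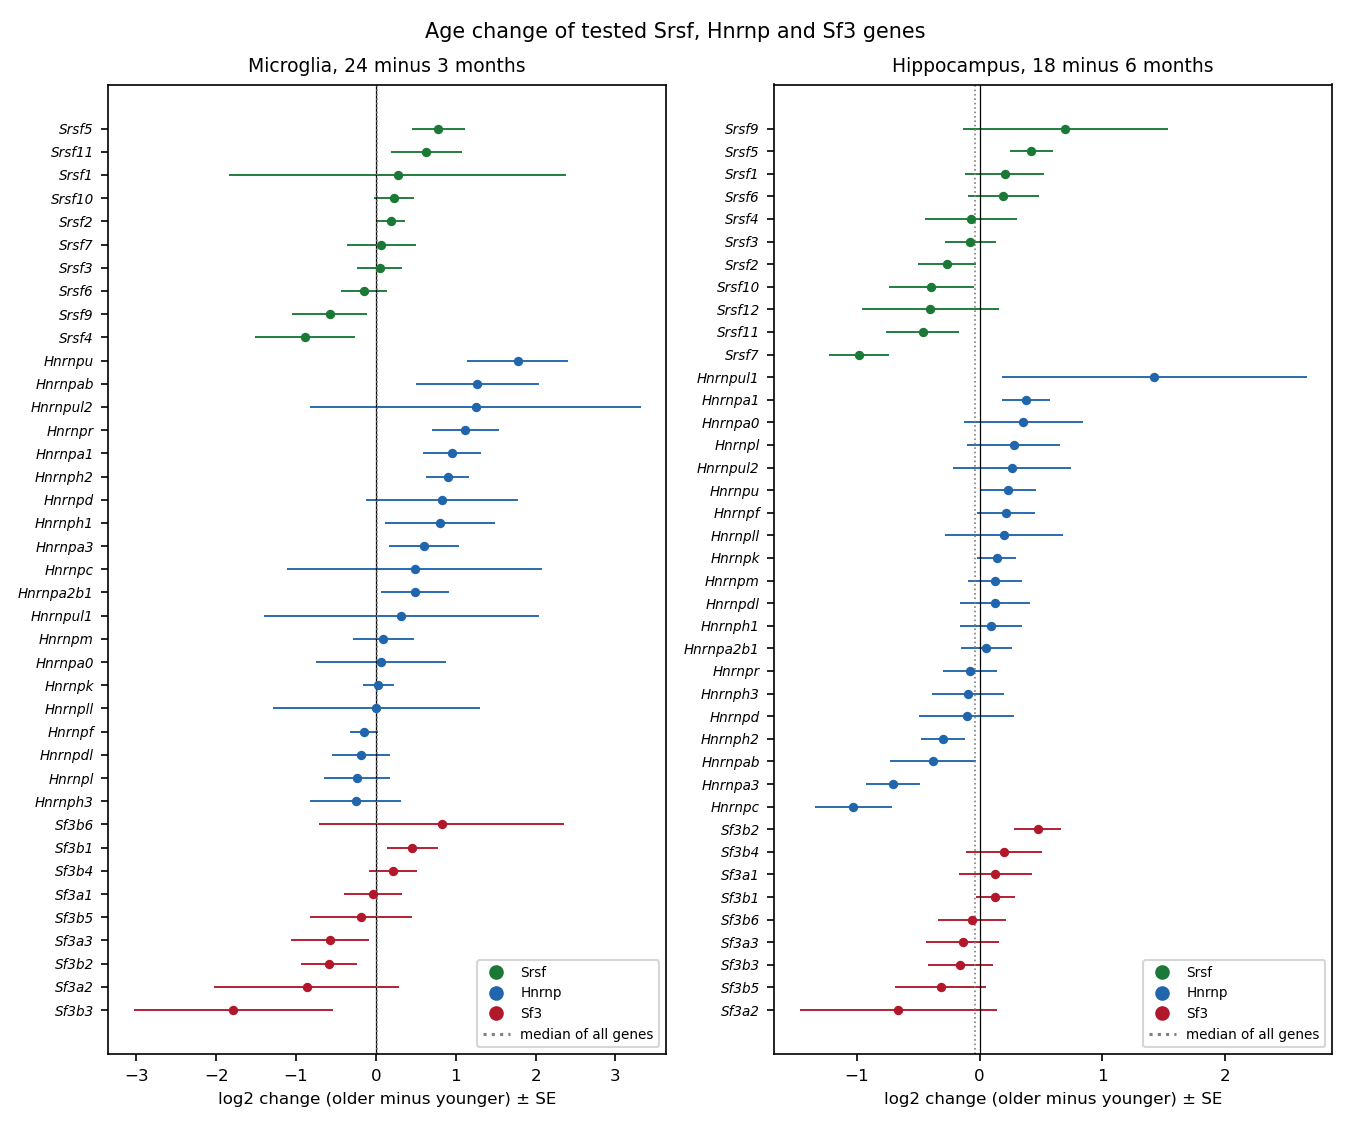
Fitted log2 change of each tested member with its SE, 24 minus 3 months in microglia (left, edgeR) and 18 minus 6 months in hippocampus (right, limma), ordered within each family, with the median of all genes as a dotted line. Hnrnpu has the highest microglia value at 1.77 and Sf3b3 the lowest at -1.79, and in hippocampus Srsf7 and Hnrnpc stand lowest at -0.98 and -1.03.

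The Hnrnp family held the members with the lowest p-values in microglia: 16 of 20 tested had a higher mean at 24 months and 4 a lower one, and their median log2 change was 0.49. Hnrnph2, which like Hnrnpf binds runs of G, had 275, 205 and 210.4 CPM at 24 months, against 95.8, 114 and 161 CPM at 3 months. Every 24 month library was above every 3 month library, and its log2 change was 0.90 ± 0.26 (SE; edgeR, adjusted p = 0.629). Hnrnpu, a protein that binds both nuclear RNA and chromatin scaffold, had 202, 213 and 36.2 CPM at 24 months and 56.5, 30.2 and 45.1 CPM at 3 months. Its 24 month libraries 1 and 2 were high and library 3 lay among the 3 month libraries, with a log2 change of 1.77 ± 0.63 (edgeR, adjusted p = 0.838).

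Hnrnpr, which carries mRNA in nerve cell processes as well as acting in the nucleus, showed the same layout as Hnrnpu. It had 172, 129.8 and 59.4 CPM at 24 months and 52.0, 47.8 and 66.7 CPM at 3 months, a log2 change of 1.12 ± 0.42 (edgeR, adjusted p = 0.868), with library 3 inside the 3 month range. Hnrnpa1, which represses exons that SR proteins promote, had 205, 91.6 and 109 CPM at 24 months and 58.5, 81.2 and 69.4 CPM at 3 months. The ages did not overlap, library 1 was far above the other 24 month libraries, and the log2 change was 0.96 ± 0.36 (edgeR, adjusted p = 0.868). Hnrnpa1 has processed copies in the genome and Hnrnph2 a close relative in Hnrnph1, so how counting split reads between copies is uncertain for both.

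Hnrnpa2b1 and Hnrnpa3, relatives of Hnrnpa1, gave log2 changes of 0.49 ± 0.43 and 0.60 ± 0.44 with overlapping ages. Hnrnpa2b1 had 269, 276 and 85.6 CPM at 24 months and 179, 132 and 139 CPM at 3 months: 24 month libraries 1 and 2 were above all 3 month libraries, and library 3 was below them. Hnrnph1 split in the same way, at 331, 240.1 and 38.1 CPM at 24 months and 68.4, 127 and 154 CPM at 3 months, and its log2 change of 0.80 ± 0.69 was close to its error. Hnrnpd, which binds AU-rich elements of short-lived mRNA, had a low level, with 13.02, 11.5 and 13.9 CPM at 24 months and 6.42, 5.24 and 10.01 CPM at 3 months, without overlap, and a log2 change of 0.82 ± 0.95, smaller than its error (edgeR, adjusted p = 0.997). Hnrnpab had 64.0, 26.8 and 18.6 CPM at 24 months and 8.73, 19.7 and 17.0 CPM at 3 months, with library 1 highest and library 3 inside the 3 month range.

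The remaining Hnrnp genes lay near no change or had wide errors. Hnrnpk had 843, 770.5 and 726 CPM at 24 months and 890.3, 615 and 782 CPM at 3 months, a log2 change of 0.0320 ± 0.19, and Hnrnpf had 519, 463 and 448 CPM at 24 months and 594, 541 and 451 CPM at 3 months, a log2 change of -0.15 ± 0.18. These 2 abundant genes were among the best measured members. Hnrnpm gave 0.0898 ± 0.38, Hnrnpl, a binder of CA repeats, -0.23 ± 0.41, and Hnrnpdl -0.18 ± 0.36 on the log2 scale. Hnrnpc, which binds U-rich tracts near splice sites, had 20.0, 32.4 and 25.3 CPM at 24 months and 0, 31.3 and 24.2 CPM at 3 months. The 3 month library 1 was thus listed at 0 (3 counts there are 0.224 CPM) while the other 5 ranged over 20.01 to 32.4 CPM, and the log2 change was 0.49 ± 1.599.

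Of the 10 Srsf genes tested, 7 had a higher and 3 a lower mean at 24 months, their median log2 change was 0.13, and in none did the ages separate. Srsf5 had 843, 899 and 407 CPM at 24 months and 479.8, 308 and 464 CPM at 3 months. Its 24 month libraries 1 and 2 were above every 3 month library and library 3 lay inside the 3 month range, for a log2 change of 0.78 ± 0.33 (edgeR, adjusted p = 0.898). Srsf11 was ordered in much the same way, at 239.9, 157 and 65.9 CPM at 24 months and 118, 90.5 and 90.2 CPM at 3 months, except that library 3 was the lowest of all 6. Srsf2 was the steadiest, with 528, 547 and 580.2 CPM at 24 months and 491, 402 and 562 CPM at 3 months and a log2 change of 0.19 ± 0.18.

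Srsf3 and Srsf7, which help to export mRNA from the nucleus, gave log2 changes of 0.0510 ± 0.28 and 0.0679 ± 0.43 in microglia. Srsf7 had 80.6, 56.0 and 119 CPM at 24 months and 52.0, 70.3 and 121 CPM at 3 months, so each age held a library above 100 and others below it. Srsf6 gave -0.15 ± 0.29 and Srsf10, which turns into a repressor when it loses phosphate, 0.23 ± 0.25. The lowest Srsf log2 changes were those of Srsf9, at 43.1, 23.6 and 33.4 CPM at 24 months and 52.1, 55.9 and 41.4 CPM at 3 months, and Srsf4, at 11.3, 34.7 and 50.3 CPM at 24 months and 64.3, 37.5 and 76.3 CPM at 3 months. Their log2 changes of -0.58 ± 0.47 and -0.89 ± 0.63 each had an adjusted p of 0.993 (edgeR), and the ages overlapped in both.

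Of the 9 Sf3 genes, 3 had a higher and 6 a lower mean at 24 months, their median log2 change was -0.18, and none had an unadjusted p under 0.05. Sf3b1 had 522, 797 and 371 CPM at 24 months and 299, 479 and 455 CPM at 3 months, a log2 change of 0.46 ± 0.32, with library 3 within the 3 month range. Sf3b3, a scaffold of SF3b, had 0.212, 78.8 and 46.1 CPM at 24 months and 169.7, 133 and 129 CPM at 3 months. It was the 1 member whose 24 month libraries were all lower, and library 1 held 2 estimated counts, under the 0.318 CPM that 3 counts make there. Its log2 change of -1.79 ± 1.25 had a large error (edgeR, adjusted p = 0.993), and Cog4 overlaps it on the opposite strand.

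Sf3b2, which binds the intron before the branch site, had 129.8, 269.8 and 162 CPM at 24 months and 385, 257 and 202 CPM at 3 months, with overlap and a log2 change of -0.59 ± 0.35. Sf3b6, which sits next to the branch site in the complex, had 50.3, 35.2 and 35.5 CPM at 24 months and 0, 34.7 and 33.8 CPM at 3 months. Its ages were separated by a small margin. The 3 month library 1, the library with the largest share of genes over 10 CPM listed at 0, was at 0 here too. The SF3a subunits gave log2 changes of -0.0363 ± 0.37 for Sf3a1, -0.87 ± 1.16 for Sf3a2 and -0.57 ± 0.49 for Sf3a3. Sf3b4 and Sf3b5 gave 0.22 ± 0.30 and -0.18 ± 0.63.

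**Figure D3:**
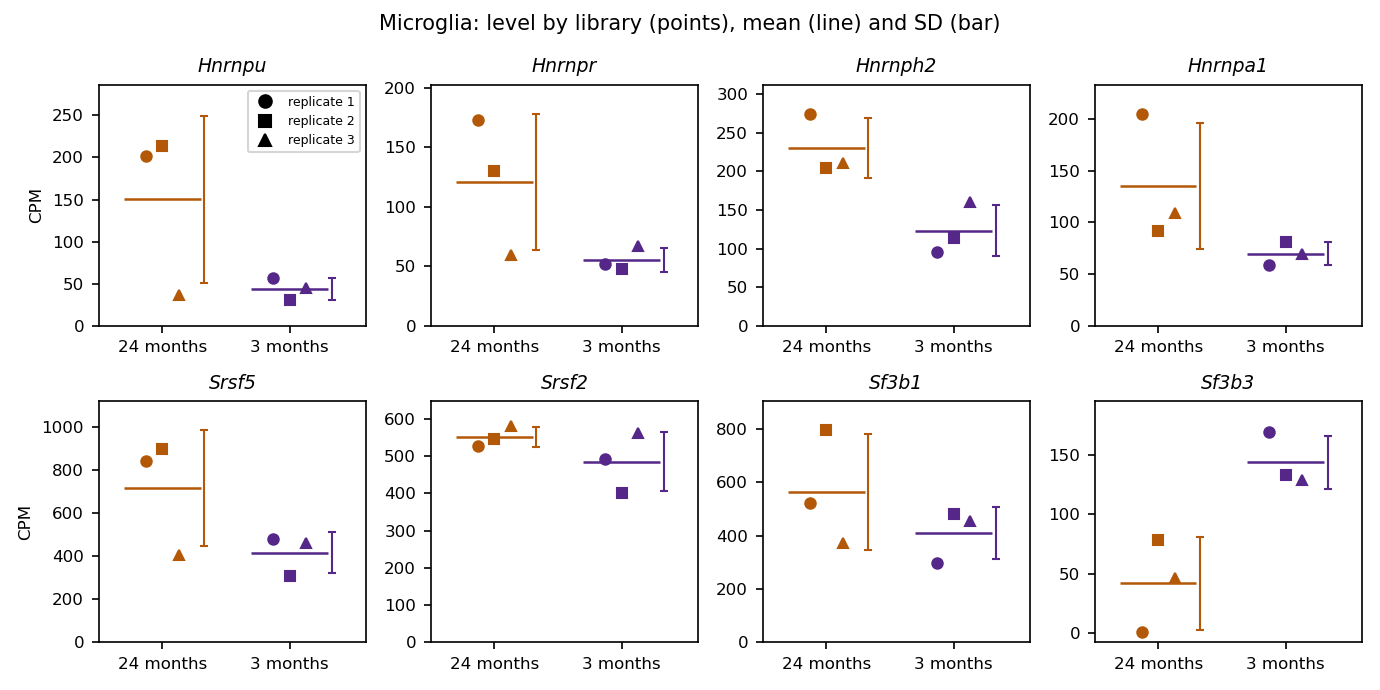
CPM of 8 members in each microglia library (point shape gives the replicate number), with the mean as a line and the SD as a bar, 24 months left and 3 months right. In Hnrnpu, Hnrnpr and Srsf5 the 24 month libraries 1 and 2 are high and library 3 lies with the 3 month libraries, Hnrnph2 and Hnrnpa1 do not overlap, and Sf3b3 is lower in every 24 month library.

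The layout of Hnrnpu was shared by several members. In 12 of 39 both of the 24 month libraries 1 and 2 were above every 3 month library: Hnrnpa1, Hnrnpa2b1, Hnrnpab, Hnrnpd, Hnrnph1, Hnrnph2, Hnrnpr, Hnrnpu, Sf3b1, Sf3b6, Srsf11 and Srsf5. Of all tested genes 16.2% lay so. Both libraries were below every 3 month library in 2 members, against 14.4% of all genes. Library 3 was above every 3 month library in 4 of these 12, within their range in 5 and below it in 3. Taken alone, library 1 was above all 3 month libraries in 14 members and below them in 10, against 29.9% and 29.4% of all genes. Library 2 was above them in 18 and below in 4, against 28.1% and 22.8%, and library 3 above in 10 and below in 11, against 23% and 19.2%. With the 24 month libraries 1 and 2 left out, a setting chosen after the data were seen, 15 of 39 members had a higher mean at 24 months, where 26 did in the full set. In that setting 9 members were higher and 11 lower without overlap, against 23.4% and 17.6% of all genes. The median log2 change of the members was then -0.11, against -0.0769 over all genes, that of Hnrnpu was -0.28 and that of Srsf5 was -0.0405. With 1 old library left in that fit, its spread is taken from the 3 month group.

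Kinases and partners of SR proteins were looked at in the same fit. Among the 9 kinases that phosphorylate SR proteins, 6 had a higher and 3 a lower mean at 24 months. The ages did not overlap in 3 higher and 1 lower, against 7.26% and 6.18% of all genes. Clk1, a nuclear kinase that releases SR proteins from speckles, had 818, 960.1 and 350.0 CPM at 24 months and 328, 239 and 326 CPM at 3 months, a log2 change of 1.25 ± 0.37 (edgeR, adjusted p = 0.629). Srpk3 had 65.2, 70.0 and 60.1 CPM at 24 months and 143, 125 and 109 CPM at 3 months, lower in each old library, with a log2 change of -0.95 ± 0.25 (edgeR, adjusted p = 0.629). Srpk2 had 26.7, 25.9 and 17.0 CPM at 24 months and 3.96, 1.496 and 6.81 CPM at 3 months, a log2 change of 2.50 ± 1.002.

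The 21 SR-related proteins had 15 higher and 6 lower means and a median log2 change of 0.41. Without overlap, 5 were higher at 24 months and 0 lower, against 7.26% and 6.18% of all genes. Luc7l2, a partner of the U1 particle, had 104, 109 and 25.2 CPM at 24 months and 11.3, 14.8 and 12.5 CPM at 3 months, with all old libraries higher and library 3 nearest to the young ones. Its log2 change was 2.62 ± 0.64 (edgeR, adjusted p = 0.546). Tra2b, an SR-like activator of exons, had 537, 523 and 229 CPM at 24 months and 207, 233 and 227 CPM at 3 months, a log2 change of 0.95 ± 0.33, with old library 3 inside the 3 month range. Ppig, a cyclophilin with an SR domain, had 47.8, 28.6 and 12.4 CPM at 24 months and 0.0746, 1.99 and 0 CPM at 3 months.

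The core of the spliceosome was counted in the same way. Of 19 snRNP proteins (Snrp and Snrnp symbols), the Sm proteins among them, 6 had a higher and 13 a lower mean at 24 months. Their median was -0.14, with 0 genes higher and 3 lower without overlap, against 7.26% and 6.18% of all genes. Snrpb (195, 185 and 193 CPM at 24 months, 221, 245 and 222 CPM at 3 months) and Snrnp27 were among these 3. Of 12 branch site factors beside the Sf3 genes, 5 were higher and 7 lower, with 0 separated. Of 32 Prp and other core factors, 19 were higher and 13 lower, with 1 higher and 1 lower without overlap, against the same shares of all genes. Ddx23, a helicase, was lower without overlap, at 9.95, 16.9 and 12.1 CPM at 24 months and 43.4, 27.2 and 22.8 CPM at 3 months. No gene of these lists passed the edgeR threshold, and differences between lists were not tested.

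The average transcript length per gene and library gives a second readout, since it moves when a gene's long and short transcripts change their shares. In GENCODE M21, 20 of 40 protein-coding members (50%) have a transcript annotated for nonsense-mediated decay, against 20.9% of 21922 protein-coding genes, and 29 (72.5%) one with a retained intron, against 41.6%; the median member has 7 transcripts and the median gene 3. Of 6841 genes with enough counts, 33 were members. No member and no other gene passed limma's test of log2 length at an adjusted p of 0.05 (0% longer, 0% shorter). At 24 months 11 members were longer and 22 shorter, near the balance over all genes, of which 68.3% were shorter. The ages did not overlap in 1 longer and 5 shorter members, against 2.84% and 5.04% of all genes, and 1 longer and 4 shorter had an unadjusted p under 0.05, against 1.64% and 2.46%.

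Hnrnpu had the lowest length ratio among members with a p under 0.05. Its average was 1660, 1657 and 2376 bases at 24 months and 2685, 3917 and 3393 bases at 3 months, shorter in every old library, and the log2 change was -0.82 ± 0.22 (limma, adjusted p = 0.792). M21 lists 9 transcripts of Hnrnpu: 1 coding transcript of 7640 bases, and others, 3 with a retained intron and 3 for nonsense-mediated decay among them, of at most 2844 bases. Cox20 overlaps Hnrnpu on the opposite strand, and since no strand-keeping kit is named, reads of both could not be told apart. In old library 3, where Hnrnpu's CPM was within the 3 month range, the length still lay below the 3 month libraries.

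Srsf4 had 1920, 1824 and 1742 bases at 24 months and 2160, 2125 and 2080 bases at 3 months, a tight pattern without overlap and a log2 change of -0.22 ± 0.0413 (limma, adjusted p = 0.792). Hnrnpab had 1856, 1884 and 1778 bases at 24 months and 2250, 2006 and 2017 bases at 3 months, a log2 change of -0.18 ± 0.0555. Hnrnpdl had 1954, 1884 and 1845 bases at 24 months and 2278, 2000 and 2127 bases at 3 months, a log2 change of -0.17 ± 0.0554. Both were shorter in every old library, each with an adjusted p of 0.792 (limma). On the opposite strand Gm12992 overlaps Srsf4 and Phykpl overlaps Hnrnpab, and A930004J17Rik overlaps Srsf4 on the same strand. Srsf2 was the 1 member longer without overlap, at 1036, 1020 and 951 bases at 24 months and 914, 901 and 936 bases at 3 months, a log2 change of 0.13 ± 0.0393 (limma, adjusted p = 0.792); Mettl23 and Mfsd11 overlap it on the opposite strand.

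Hnrnpr separated by age as well, at 2151, 2611 and 2290 bases at 24 months and 21355, 3084 and 3091 bases at 3 months, but young library 1 was far from the rest and close to the longest coding transcript of M21, 21452 bases, and the adjusted p was 0.792 (limma). Hnrnpa0 and Sf3b5, which have 1 annotated transcript each, show how much the measure moves without any choice of transcript. Hnrnpa0 ranged from 2535 to 2581 bases and Sf3b5 from 3698 to 3744 bases over the 6 libraries, with young library 1 the longest in both.

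**Figure D4:**
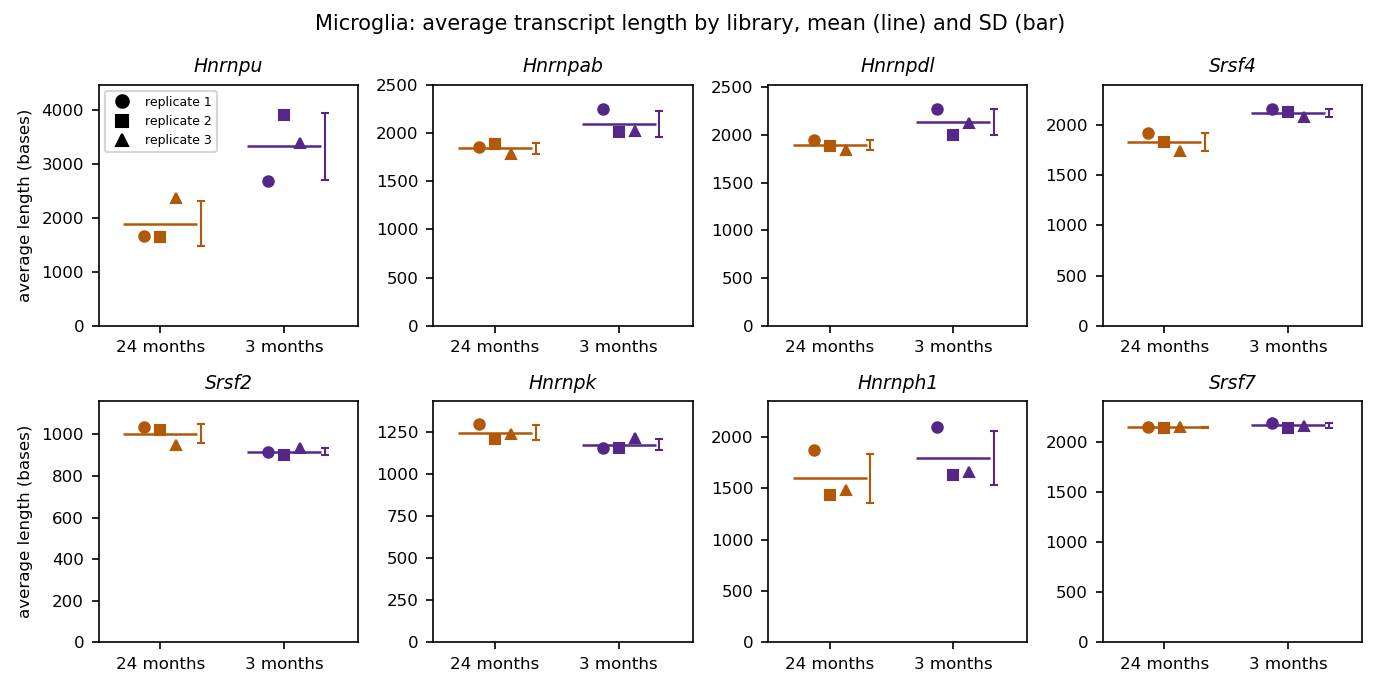
Average transcript length in bases of 8 members in each microglia library, with the mean as a line and the SD as a bar, 24 months left and 3 months right. Hnrnpu, Hnrnpab, Hnrnpdl and Srsf4 are shorter in every 24 month library, Srsf2 is longer in every 24 month library, and Srsf7 barely varies.

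Whole hippocampus was compared at 18 and 6 months on the authors' normalized counts, whose depth is unknown; such values compare libraries within a gene and not genes with each other. Fewer cells of a type and less RNA per cell cannot be told apart in such bulk tissue. The neuron markers summed to 6576 to 7286 normalized counts at 18 months and 6690 to 7389 at 6 months, and the microglia markers to 517 to 602 at 18 months and 426 to 514 at 6 months. All 40 members were tested. None passed an adjusted p of 0.05 (limma on log2 of the normalized count + 1, Benjamini-Hochberg over 13491 genes), nor did any other gene (0% higher, 0% lower). Without the mean trend 1 gene passed, and it was no member. By the sign of the log2 change, the means were higher at 18 months in 21 members and lower in 19. The median log2 change of the members was 0.0741, against -0.0371 over all genes, 47.2% of which were higher and 52.8% lower. At an unadjusted p under 0.05, 2 were higher and 3 lower, against 288 (2.13%) and 437 (3.24%) of all genes, and 4 were higher and 4 lower without overlap, against 5.03% and 5.93%.

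Srsf7 had the lowest p of the members in hippocampus. It had 61.0, 68.1 and 97.8 normalized counts at 18 months and 145, 148 and 149 at 6 months: the young libraries agreed closely, and every old library was lower. The log2 change was -0.98 ± 0.24 (limma, adjusted p = 0.749). Srsf5 had 269, 293 and 234 normalized counts at 18 months and 205, 189.5 and 196 at 6 months, higher in every old library, with a log2 change of 0.42 ± 0.17 (limma, adjusted p = 0.890). Of the 11 Srsf genes, 4 had a higher and 7 a lower mean on the log2 scale, and their median was -0.0739. Srsf4 counts as lower, with a log2 change of -0.0660, though its mean normalized count was 49.9 at 18 months and 49.4 at 6 months.

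Srsf10 and Srsf11 had lower means with overlap. Srsf11 had 56.6, 101 and 121 normalized counts at 18 months and 96.8, 148 and 128 at 6 months, a log2 change of -0.46 ± 0.30, and Srsf10 had 46.8, 82.2 and 109 at 18 months and 65.7, 138 and 106 at 6 months, a log2 change of -0.39 ± 0.35. In both, library 1 of 18 months was the lowest of the 6. Srsf2 gave -0.27 ± 0.23, Srsf3 -0.0739 ± 0.21, Srsf1 0.21 ± 0.32 and Srsf6 0.19 ± 0.29 on the log2 scale. Srsf12, not tested in microglia, had 26.6, 26.8 and 10.03 normalized counts at 18 months and 36.3, 19.3 and 24.6 at 6 months.

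Among the 20 Hnrnp genes, 13 had a higher and 7 a lower mean at 18 months. The 13 include Hnrnpul1, which was listed at 0 in 1 library of each age. Without overlap, 1 was higher and 3 were lower, against 5.03% and 5.93% of all genes. Hnrnpc had 39.5, 32.6 and 46.5 normalized counts at 18 months and 67.7, 101 and 77.3 at 6 months, a log2 change of -1.03 ± 0.31 (limma, adjusted p = 0.877). Hnrnpa3 had 89.3, 119.8 and 98.5 normalized counts at 18 months and 157, 193 and 152 at 6 months, a log2 change of -0.70 ± 0.22 (limma, adjusted p = 0.877). Both were lower in every old library. The SD at 18 and at 6 months was 6.95 and 17.1 for Hnrnpc, and 15.6 and 22.2 for Hnrnpa3. Hnrnph2 had 162, 181 and 169.9 normalized counts at 18 months and 205, 207 and 219 at 6 months, a smaller but ordered difference with a log2 change of -0.30 ± 0.18 (limma, adjusted p = 0.913).

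Hnrnpa1 was the Hnrnp gene with higher, non-overlapping values, at 191, 182 and 245 normalized counts at 18 months and 145, 169 and 157 at 6 months, a log2 change of 0.38 ± 0.20 (limma, adjusted p = 0.909). Hnrnpu had 158, 128 and 178 normalized counts at 18 months and 110.1, 122 and 165 at 6 months, with overlap and a log2 change of 0.23 ± 0.23. Hnrnpr gave -0.0802 ± 0.22, Hnrnpa2b1 0.0565 ± 0.21, Hnrnph1 0.0917 ± 0.25, Hnrnpk 0.14 ± 0.16, Hnrnpm 0.13 ± 0.22 and Hnrnpd -0.10 ± 0.39 on the log2 scale. Hnrnpf, Hnrnpl and Hnrnpdl gave 0.21 ± 0.23, 0.28 ± 0.38 and 0.12 ± 0.28, and Hnrnpab -0.38 ± 0.35. Hnrnpul1 was listed at 0 in 1 library of each age and so has no usable fold, and its point in the plot of fitted changes is not a measured fold.

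The Sf3 genes in hippocampus had 4 higher and 5 lower means and a median of -0.0616. Sf3b2 had 232, 273 and 206 normalized counts at 18 months and 187, 157 and 166 at 6 months, higher in each old library, with a log2 change of 0.47 ± 0.19 (limma, adjusted p = 0.877). Sf3b1 had 320.4, 290.3 and 276 normalized counts at 18 months and 275, 266 and 269 at 6 months, which did not overlap although the log2 change was only 0.13 ± 0.16. The remaining values were 0.13 ± 0.30 for Sf3a1, -0.66 ± 0.80 for Sf3a2, -0.14 ± 0.30 for Sf3a3 and -0.16 ± 0.26 for Sf3b3. Sf3b4, Sf3b5 and Sf3b6 gave 0.20 ± 0.31, -0.32 ± 0.37 and -0.0616 ± 0.28. Sf3b6 was one of the tightest members, at 62.7, 62.1 and 56.9 normalized counts at 18 months and 67.4, 62.9 and 59.5 at 6 months.

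**Figure D5:**
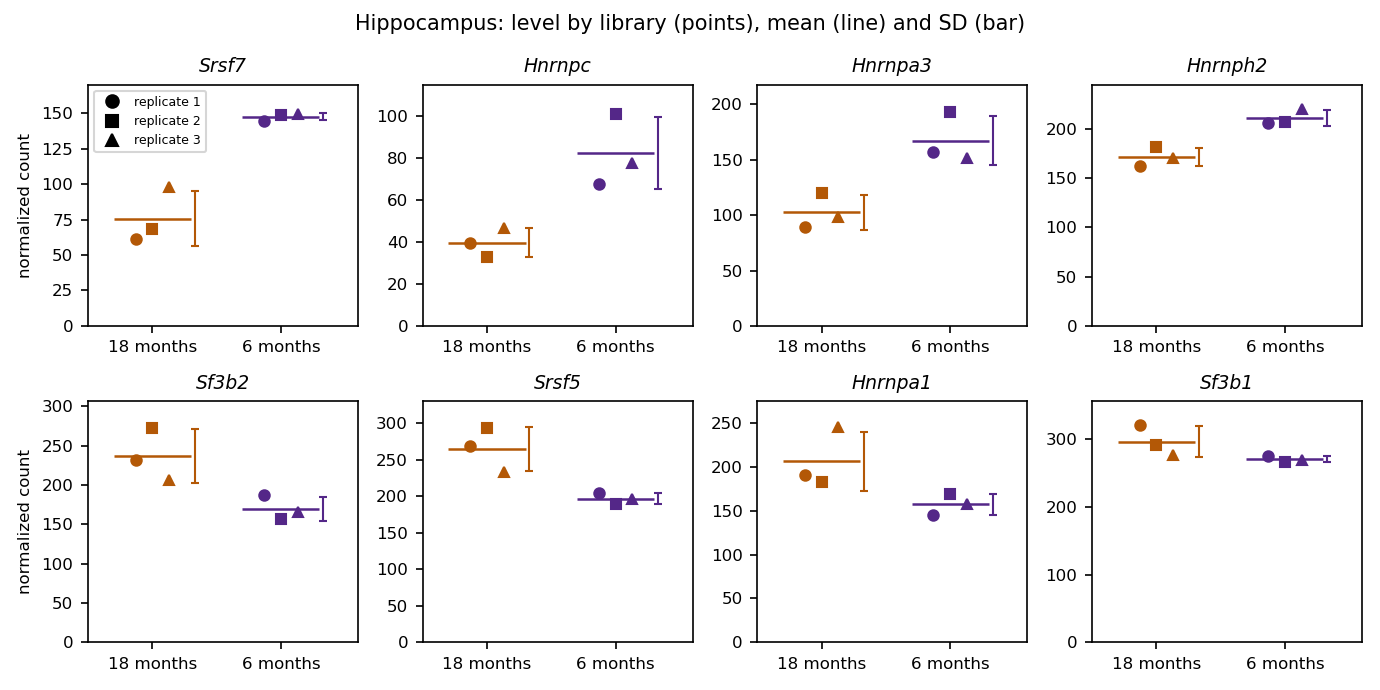
Normalized counts of the 8 members whose ages did not overlap in whole hippocampus, per library, with the mean as a line and the SD as a bar, 18 months left and 6 months right. Srsf7, Hnrnpc, Hnrnpa3 and Hnrnph2 are lower in every 18 month library, and Sf3b2, Srsf5, Hnrnpa1 and Sf3b1 are higher.

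The other splicing lists gave few separated genes in hippocampus and none past the limma threshold. Of 9 SR kinases 4 had a higher and 5 a lower mean, with 0 separated. Of 21 SR-related proteins 14 were higher and 7 lower, with 3 separated as higher and 0 as lower, against 5.03% and 5.93% of all genes. Srrm1, a coactivator that bridges SR proteins and snRNPs, had 162, 138 and 114 normalized counts at 18 months and 77.4, 80.03 and 92.4 at 6 months, a log2 change of 0.71 ± 0.23 (limma, adjusted p = 0.877). Scaf4 and Acin1 had wider errors, with log2 changes of 1.37 ± 0.58 and 1.18 ± 0.60. The snRNP proteins had 12 higher and 7 lower means with 0 separated. Of the branch site factors 5 were higher and 6 lower among 11 tested, and of the Prp and core factors 15 and 17. In the branch site list and in the Prp and core list, 1 gene each was separated as higher and 1 as lower, against 5.03% and 5.93% of all genes. Phf5a, a small SF3b subunit outside the symbol rule, had 38.1, 29.1 and 32.2 normalized counts at 18 months and 58.1, 64.4 and 40.4 at 6 months, lower in each old library.

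Set side by side, 39 members were tested in both tissues. In 14 the older mean was higher in both and in 6 lower in both, while 12 were higher in old microglia and lower in old hippocampus and 7 the reverse. The ages separated in both tissues in 2 members. Matching shares of all genes are not given here, for direction or for separation, so these counts have no background to be judged by. Taken by tissue, 7.26% of all genes separated as higher and 6.18% as lower in microglia, and 5.03% and 5.93% in hippocampus. Hnrnpa1 was higher in both, with log2 changes of 0.96 ± 0.36 at 24 against 3 months in microglia and 0.38 ± 0.20 at 18 against 6 months in hippocampus. Hnrnph2 was higher in old microglia, at 0.90 ± 0.26, and lower in old hippocampus, at -0.30 ± 0.18. Srsf5 was also higher in both, at 0.78 ± 0.33 and 0.42 ± 0.17, without separating in microglia, and Srsf7, lowest of its family in hippocampus, gave 0.0679 ± 0.43 in microglia. None of these differences between tissues was tested, since the tables were scaled apart and the ages differ.

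In the authors' deposited tables, 186 genes (1.54%) were higher and 57 (0.472%) lower at 24 months in microglia at their adjusted p under 0.05, and 14 (0.118%) higher and 22 (0.186%) lower at 18 months in hippocampus; 0 members were among them. The closest in the authors' deposited table of the hippocampus was Srsf7, with a log2 change of -0.93 (SE 0.25) and an adjusted p of 0.05001, which lies just above the threshold. In the authors' deposited table of the microglia, Hnrnpu was closest, at 2.62 (SE 0.84, adjusted p = 0.0722), followed by Hnrnph2, at 0.88 (SE 0.30, adjusted p = 0.119). The edgeR fit on counts gave 1.77 ± 0.63 for Hnrnpu, and with the deposited average lengths as an offset it gave 2.64.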

How the data were processed

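Per the labels' protocols, cDNA was primed with oligo-dT, extended by template switching, amplified by PCR and tagmented. The tools kallisto, DESeq and DESeq2 (no version) and the builds GRCm39 and mm10 (no role) are named in the submitters' processing notes. For the microglia the authors deposited estimated counts, TPM and average transcript lengths per gene and library, per the file headers. For each tissue the authors deposited normalized counts (a signal scaled between libraries), a log2 fold change, its standard error and Wald statistic (scores), and p-values with and without adjustment, per the file headers. The sign of the deposited hippocampus change runs 6 over 18 months, which matched the sign computed from the normalized counts in 97.2% of genes, and it was turned to 18 over 6 months.

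Estimated counts were rounded and tested with edgeR 4.0.16 in R 4.3.3 (quasi-likelihood, TMM, filterByExpr) on the 6 microglia libraries; each SE is the log2 change divided by the square root of the F statistic. CPM uses the TMM-scaled library size. All counts of higher and lower means follow the sign of the fitted log2 change. Normalized counts of the hippocampus were tested with limma 3.58.1 with a mean trend on log2(value + 1), keeping genes that reached 1 in 3 or more libraries, since the table holds no raw counts; changes on that scale understate those of low genes. Lengths were tested with limma on log2 bases for genes with at least 10 estimated counts in every library. A row with no gene name held 0.0546% to 0.0771% of the microglia counts and 0.0233% to 0.0335% of the hippocampus values and was left out. Scripts were tested on simulated data. Alternatives were other scalings, filters and pseudocounts, DESeq2 1.42.0, a length offset, a replicate block and libraries left out. Promoters came from RefSeq on GRCm38.p6 and transcripts from GENCODE M21; gene positions are not given, as the build of each file is not given in the sources used here. Members named in the text are 31 fixed symbols, plus up to 5 per direction with the smallest p among those without overlap, and up to 3 per other list; 1 gene that the rule names is not reported here. The members and lists were chosen with earlier results of these data known. Srsf4, Srsf9, Srsf12, Hnrnpa0 and the Hnrnpul genes are named beyond that rule, after their values were seen.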

Additional observations from a re-analysis of the deposited data

Results flagged for a closer look

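Hnrnph2 pointed in opposite directions in the 2 tissues. Its log2 change was 0.90 (SE 0.26) at 24 against 3 months in microglia, where every 24 month library was higher. It was -0.30 (SE 0.18) at 18 against 6 months in hippocampus, where every 18 month library was lower. The difference was not tested, since the tables were scaled apart and the ages differ, and neither value passed its adjusted threshold (edgeR, adjusted p = 0.629; limma, adjusted p = 0.913). With 1 library left out the value ranged from 0.74 to 1.12 in microglia and from -0.34 to -0.26 in hippocampus.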

How the results depend on the processing

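No member passed the adjusted threshold under any alternative run, for level in either tissue or for transcript length. Leaving out 1 library, 596 single-gene values kept their direction and their side of the threshold and 38 turned sign; under the other alternatives 713 kept both and 26 turned. Over all microglia genes, 141 were called by DESeq2's Wald test and 0 to 55 when 1 library was left out, with 55 without the 24 month library 3. Luc7l2 and Ppig passed with DESeq2, and Clk1 and Tra2b with edgeR without the 24 month library 3. Members without overlap numbered 5 in microglia, 6 to 14 with 1 library left out, 11 with replicate 1 of both ages left out (8 higher and 3 lower, against 18.3% and 16.8% of all genes), and 20 with the 24 month libraries 1 and 2 left out (9 higher and 11 lower, against 23.4% and 17.6% of all genes). With 1 library left out the shares of all genes were 10.5% to 16.3% higher and 8.90% to 14.3% lower, against 7.26% and 6.18% with all libraries. That last setting was chosen after seeing the data and leaves 1 old library, whose spread is assumed to be like the others'. It gave a median log2 change of -0.11 and values of -0.47 for Srsf3, -0.0405 for Srsf5, -0.0680 for Srsf10, -0.60 for Srsf11, -0.81 for Hnrnpa2b1, -1.62 for Hnrnph1, -0.0743 for Hnrnpk, -0.28 for Hnrnpm, -0.28 for Hnrnpu, -0.15 for Sf3b1, 0.35 for Sf3b5, -0.60 for U2surp and -1.24 for Upf2, all opposite in sign to the full set. With replicate 1 of both ages left out, values turned to -0.13 for Srsf7, 0.39 for Hnrnpdl, -0.00831 for Hnrnph1, 0.13 for Hnrnpl, -0.24 for Hnrnpm, 0.23 for Sf3a2, 0.29 for Sf3b5 and 0.0565 for Sf1, and with the lengths as an offset to -0.00172 for Srsf3, 0.00202 for Hnrnpdl, -0.0692 for Hnrnpk, 0.0526 for Sf3a1 and 0.45 for Sf1. In hippocampus the median of the members was -0.0025 with a minimum value of 10 and -0.0179 to 0.10 with 1 library left out, and 1 gene was called without a mean trend and 0 to 1 with 1 library left out. With 1 library left out, 12 microglia values turned sign: Srsf1 (-0.83 to 2.71), Srsf3 (-0.21 to 0.23), Srsf7 (-0.27 to 0.47), Hnrnpc (-0.10 to 1.08), Hnrnpdl (-0.39 to 0.19), Hnrnpl (-0.52 to 0.14), Hnrnpm (-0.20 to 0.32), Sf3a1 (-0.36 to 0.11), Sf1 (-0.60 to 0.0888), Hnrnpk (-0.12 to 0.15), Sf3b5 (-0.58 to 0.22) and Srsf6 (-0.37 to 0.0649). In hippocampus 11 did: Hnrnpd (-0.28 to 0.0805), Sf3a1 (-0.0677 to 0.27), Hnrnpdl (-0.24 to 0.33), Hnrnph1 (-0.14 to 0.30), Srsf3 (-0.18 to 0.0595), Srsf1 (-0.00591 to 0.35), Hnrnpa2b1 (-0.17 to 0.19), Sf3b3 (-0.32 to 0.0609), Hnrnpr (-0.18 to 0.0896), Sf3b5 (-0.61 to 0.0629) and Clk3 (-2.53 to 0.42). The cause was not tested. Same-numbered libraries of the 2 ages had correlations of deviations of -0.0270 to 0.0649 in microglia and 0.00941 to 0.0142 in hippocampus. Differently numbered libraries had -0.0694 to 0.0712 in microglia and -0.0515 to 0.0418 in hippocampus. With 3 libraries in each group, these values cannot show whether the numbers pair libraries. With the replicate block, 0 members and 0 genes were called in either tissue and 0 members for length, and 1 microglia member in place of 5 had an unadjusted p under 0.05. Low counts, or 0 counts in a single library, limit what can be said of Srsf1, Hnrnpc, Hnrnpul1, Hnrnpul2, Sf3b3 and Sf3b6 in microglia, and the depth of the hippocampus libraries is unknown.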

Other observations

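Other RNA-binding regulators of splicing, many of them with a tissue bias, were counted too. In microglia 28 of 40 were tested. Of these, 22 had a higher and 6 a lower mean at 24 months, and the median log2 change was 0.71. Without overlap, 4 were higher and 0 lower, against 7.26% and 6.18% of all genes. Celf2, which binds GU-rich RNA, had 344, 366 and 65.3 CPM at 24 months and 40.8, 44.5 and 98.0 CPM at 3 months, a log2 change of 2.08 ± 0.66 (SE; edgeR, adjusted p = 0.726). Qk, the quaking protein, had 119, 106 and 21.6 CPM at 24 months and 24.0, 14.3 and 19.5 CPM at 3 months, and Mbnl1 had 913, 1081 and 348 CPM at 24 months and 399, 194 and 333 CPM at 3 months. In these 3 genes the 24 month libraries 1 and 2, those with high immediate early genes, were above every 3 month library and library 3 was not. The part of the immediate early genes in this was not tested. In hippocampus 36 were tested, and 14 had a higher and 22 a lower mean at 18 months, for a median of -0.11. Rbfox3, the neuronal protein NeuN, had 233, 275 and 184 normalized counts at 18 months and 179.5, 143 and 117 at 6 months, a log2 change of 0.66 ± 0.22 (SE; limma, adjusted p = 0.877).

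Factors of nonsense-mediated decay and the exon junction complex gave 8 higher and 6 lower means among 14 tested in microglia at 24 months, and their median log2 change was 0.23. In hippocampus at 18 months 3 were higher and 11 lower, for a median of -0.20. Upf2 had 36.8, 31.7 and 3.23 CPM in 24 month microglia and 7.24, 7.85 and 7.83 CPM in 3 month microglia. Smg5 and Smg9 were the 2 separated by age in hippocampus, both as higher, where 5.03% of all genes were higher and 5.93% lower without overlap. Smg5 had 74.2, 56.0 and 54.8 normalized counts at 18 months and 43.4, 43.3 and 45.6 at 6 months, and Smg9 had 29.4, 30.4 and 58.0 at 18 months and 22.8, 16.6 and 28.9 at 6 months. No gene of either list passed an adjusted threshold.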
